A study of Mus musculus with 24 samples.

Results

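The carbonic anhydrase genes Car1, Car2, Car3, Car5a, Car8 and Car14 were chosen by name and make up 6 of the 25746 genes with counts. They were chosen with earlier results of these data known. Hepatic mRNA was measured by RNAseq in 24 mice of the strain C57BL/6N aged 12 weeks, with 1 library per mouse and 6 mice in each group. The groups were male wild types (mWT), male knockouts (mKO), female wild types (fWT) and female knockouts (fKO), where knockout (KO) mice were homozygous for a CRISPR/Cas9 deletion of the whole major urinary protein (Mup) gene cluster and wild-type (WT) mice carried the cluster. All KO mice descended from 1 male founder through heterozygous parents, so variants linked to the deletion cannot be told apart from it. Livers were taken at 12 weeks and snap frozen, after body composition had been scanned in fasted mice under isoflurane.

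Carbonic anhydrases are zinc enzymes that interconvert carbon dioxide and water with bicarbonate and a proton. In hepatocytes they are known for supplying bicarbonate to urea synthesis, gluconeogenesis and fatty acid synthesis, and for acid-base transport. Car5a is the mitochondrial enzyme that serves carbamoyl phosphate synthetase and pyruvate carboxylase, Car1 and Car2 are cytosolic enzymes that are abundant in red blood cells, Car3 is a cytosolic enzyme with low hydratase activity that is abundant in muscle, fat and liver, and Car14 is anchored in the plasma membrane with its active site outside the cell. Car8 has lost the catalytic activity and is known as a binding partner of the inositol trisphosphate receptor.

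On the GRCm38 genome, Car1 (ENSMUSG00000027556, chr3:14766216-14808368, minus strand), Car3 (ENSMUSG00000027559, chr3:14863512-14872523, plus strand) and Car2 (ENSMUSG00000027562, chr3:14886273-14900770, plus strand) lie in a row, with 55143 bp between Car1 and Car3 and 13749 bp between Car3 and Car2. Car14 (ENSMUSG00000038526, chr3:95897768-95904691, minus strand) is on the same chromosome and Car5a (ENSMUSG00000025317, chr8:121916126-121944904, minus strand) on chromosome 8. Car8 (ENSMUSG00000041261, chr4:8143362-8239041, minus strand) shares chromosome 4 with the deleted cluster but ends 51717762 bp before its first Mup gene. The neighbours on chromosome 3 did not share a pattern in these livers: Car3 and Car1 were higher in WT males than in WT females, and Car2 was lower.

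Promoter sequences of 2 of the 6 genes, Car5a and Car14, were found in the RefSeq table for GRCm38.p6. They are shown because no other member had an entry in that table. Car5a did not pass the test in any comparison while Car14 differed between the sexes. The part of the promoters in this was not tested. Each line gives the 250 bases before the annotated start, on the minus strand from 5′ to 3′, with CpG dinucleotides in capitals.
Car5a, chr8:121944913-121945162: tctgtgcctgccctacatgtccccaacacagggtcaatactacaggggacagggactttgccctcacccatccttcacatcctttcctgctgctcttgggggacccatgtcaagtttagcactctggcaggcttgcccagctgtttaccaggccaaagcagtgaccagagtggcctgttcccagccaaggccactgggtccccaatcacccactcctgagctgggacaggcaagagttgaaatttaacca
Car14, chr3:95904686-95904935: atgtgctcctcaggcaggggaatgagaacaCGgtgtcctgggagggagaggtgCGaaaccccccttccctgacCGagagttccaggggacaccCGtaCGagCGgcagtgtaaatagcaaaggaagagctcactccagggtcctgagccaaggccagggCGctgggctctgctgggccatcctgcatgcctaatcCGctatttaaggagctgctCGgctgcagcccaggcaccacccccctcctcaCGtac
The Car5a window held 0 CpG dinucleotides and the Car14 window 10, against a median of 6 and quartiles of 2 and 16 over 32851 promoter windows in the table. Both promoters were searched on both strands from 250 bases before to 50 bases after the start. Neither held the STAT5-type motif TTCNNNGAA, which was found in 8.3% of all promoters of the table. The GATA-type motif AGATAA was likewise not found in either, against 11.2% of all promoters. The same was true of TATAAA, the core of the box bound by the general transcription machinery, against 13.6%. The absence of these letters says nothing about whether the factors bind there.

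The total count per library ranged from 15361901 to 26261394. Summed Mup expression was 17028 to 37393 CPM (read counts relative to library size, scaled by the TMM method) in mWT, 3395 to 5259 in fWT and at most 0.457 in any KO mouse, and the Y-linked gene Ddx3y was 78.9 to 115 CPM in males and 0 in all females, so libraries matched their labels. The hepatocyte markers Alb, Apoa1, Ttr, Tat, Cps1 and Ass1 summed to between 88547 and 144609 CPM per mouse. In bulk liver, fewer cells of a type and less RNA per cell cannot be told apart.

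All 6 genes passed the filter on low values (at least 0.66 CPM in at least 6 of 24 libraries), as did 12330 genes in all. Levels of different genes were set side by side only as CPM per kb of exon. Car3 was by far the most abundant, at 1002 ± 248 CPM per kb in mWT, 1341 ± 147 in mKO, 496 ± 121 in fWT and 523 ± 70.6 in fKO (mean ± SD, n = 6 each). It was 29.2 times the gene next in order in mWT and 13.0 times in fWT, and by CPM it ranked 43rd of all genes in mWT, 35th in mKO, 83rd in fWT and 81st in fKO. Of the summed CPM of the 16 family genes, Car3 made up 90.8 to 94.7% in mWT and 84.2 to 89.9% in fWT.

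Car5a and Car8 followed. Car5a was 34.4 ± 2.84 CPM per kb in mWT and Car8 23.4 ± 2.69, without overlap between the 6 values of each gene, whereas in mKO, fWT and fKO the values of both genes overlapped and in fKO the order of their means was turned (Car8 35.6 ± 3.56, Car5a 34.0 ± 2.55). Car14 came next with 18.7 ± 3.999 CPM per kb in mWT and 12.7 ± 1.85 in fKO. It overlapped with Car8 in both male groups and lay below it without overlap in both female groups. Car1 (4.201 ± 1.29 in fWT to 6.70 ± 0.839 in mWT) and Car2 (1.91 ± 0.302 in mWT to 3.20 ± 0.531 in fWT) were the lowest of the 6 genes in CPM per kb, and only in fWT did the values of these genes overlap.

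**Figure D1:**
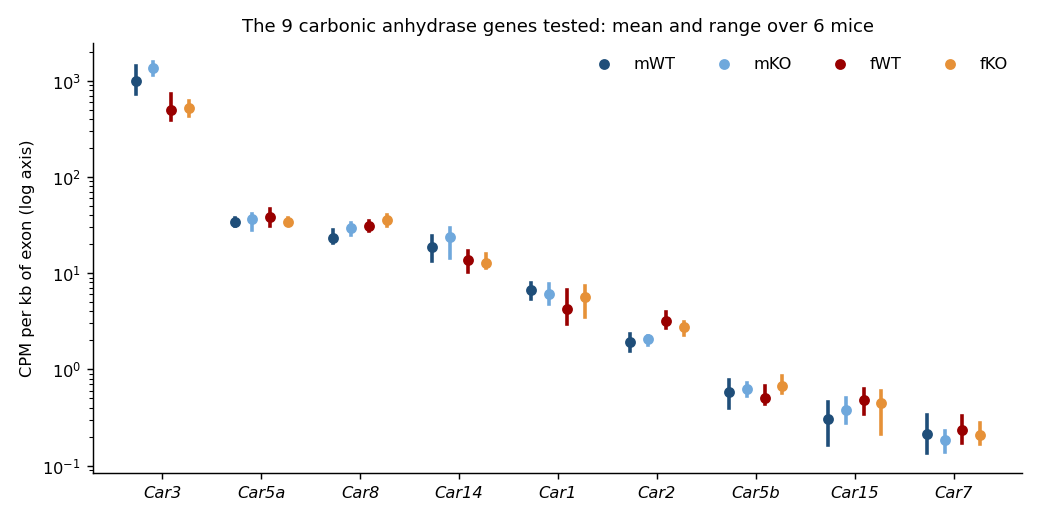
Level of the 9 carbonic anhydrase genes that passed the filter, as CPM per kb of exon on a log axis; points are means and lines run from the lowest to the highest of 6 mice per group. Car3 lies between 393 and 1553 CPM per kb in every mouse, above all other genes of the family.

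The comparison of KO with WT mice in each sex asked whether loss of the Mup cluster was accompanied by changes of these genes. None of the 6 passed an adjusted p-value under 0.05 in males (0 of 6, against 0.211% of the 12330 genes tested) or in females (0 of 6, against 0.0892%) by the quasi-likelihood test of edgeR, with adjustment after Benjamini and Hochberg. At the unadjusted p-value under 0.01 used in the study, 2 of 6 differed in males, against 3.52% of all genes in either direction. These were Car8 and Car3, both higher in mKO than in mWT. In females 0 of 6 differed, against 0.876%. At an unadjusted p-value under 0.05 the counts were 3 of 6 in males, against 10.6% of all genes, and 2 of 6 in females, against 4.87%. DESeq2, with its own adjusted p-value under 0.05, called 1 of 6 in males, Car8, against 1.13% of all genes, and 0 of 6 in females, against 0.146%. The median log2 fold change of the 6 genes was 0.23 in males and -0.01 in females, where that of all genes tested was -0.00212 and -0.00264. The 6 genes were chosen with earlier results of these data known, so these counts and medians are not evidence about the family.

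Car8 had the smallest p-value in males, rank 77 of 12330. It was 79.5 CPM in the lowest, 86.4 in the median and 108 in the highest mWT mouse, and 95.8, 111 and 129 CPM in mKO. The groups overlapped, with 3 of 6 mKO mice above every mWT mouse. The log2 fold change was 0.33 (SE 0.0868, 95% interval 0.15 to 0.51), which is 1.26-fold, with an unadjusted p-value of 0.000789 and an adjusted p-value of 0.126. This value depended on 1 mouse and on the tool: without mWT mouse 2, which held the highest mWT value, the log2 fold change was 0.39 with an adjusted p-value of 0.0386, and DESeq2 gave an adjusted p-value of 0.0272. In females Car8 was 107, 122 and 133 CPM in fWT and 120, 135 and 153 CPM in fKO (lowest, median, highest), again with overlap and 3 of 6 KO mice above all WT mice. The female log2 fold change was 0.19 (95% interval 0.02 to 0.37, adjusted p = 0.929), and the male minus female difference of the effects was 0.14 (-0.12 to 0.39, adjusted p = 0.919).

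Car3 was 2064, 2851 and 4058 CPM in mWT and 3254, 3800 and 4449 CPM in mKO. The lowest mKO mouse lay above 5 of the 6 mWT mice, and 1 mWT mouse reached into the range of the mKO group. The log2 fold change was 0.42 (SE 0.146, 95% interval 0.12 to 0.72), or 1.34-fold, with an unadjusted p-value of 0.00812 and an adjusted p-value of 0.269. In females, Car3 was 1126, 1302 and 2076 CPM in fWT and 1226, 1519 and 1764 CPM in fKO. Every fKO value lay within the range of fWT, and the log2 fold change was 0.08 (-0.22 to 0.38, adjusted p = 0.969). The difference between the sexes in the effect was 0.34 (-0.08 to 0.77, adjusted p = 0.880), so the interval held 0 as well as a difference of the size seen in males.

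Car14 had values of 34.3, 49.9 and 62.0 CPM in mWT and of 36.2, 63.6 and 74.95 CPM in mKO. Of the mKO mice, 4 lay above all mWT mice, and mKO mouse 1 lay at 36.2 CPM while the other 5 ranged from 60.6 to 74.95. The log2 fold change was 0.35 (SE 0.155, 95% interval 0.03 to 0.67, adjusted p = 0.425), and 0.46 without mKO mouse 1 (adjusted p = 0.210). In females the gene was at 25.99, 35.2 and 42.8 CPM in fWT and 28.4, 30.4 and 39.8 CPM in fKO, with a log2 fold change of -0.09 (-0.41 to 0.23, adjusted p = 0.967).

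Car1, the low cytosolic enzyme, was the only member whose KO estimate was higher in females than in males. It was 3.68, 5.03 and 8.29 CPM in fWT and 4.39, 7.36 and 9.14 CPM in fKO, overlapping over most of the range. The log2 fold change was 0.42 (SE 0.181, 95% interval 0.04 to 0.79, adjusted p = 0.929), and 0.59 without fWT mouse 5, whose 8.29 CPM stood apart from 3.68 to 5.25 in the other 5. In males it was 6.69, 8.46 and 9.90 CPM in mWT and 5.90, 7.64 and 9.53 CPM in mKO, with a log2 fold change of -0.13 (-0.49 to 0.24, adjusted p = 0.877).

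Car2 and Car5a gave intervals that held 0 in both sexes. For Car2, the high-activity cytosolic enzyme, the log2 fold change was 0.12 in males (-0.12 to 0.37) and -0.20 in females (-0.43 to 0.03). For Car5a, it was 0.08 in males (-0.13 to 0.29) and -0.17 in females (-0.37 to 0.04). A change of Car5a mRNA by a log2 fold change over 0.29 upwards in males, or over 0.37 downwards in females, thus lay outside the 95% interval.

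**Figure D2:**
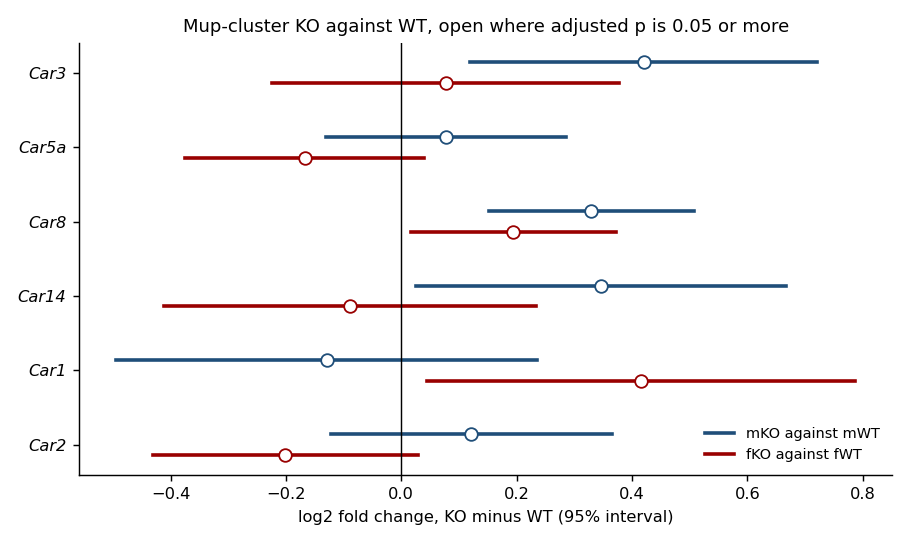
Log2 fold change of KO against WT for each gene in males (blue) and females (red), with lines for the 95% interval of edgeR's quasi-likelihood fit. All points are open because no adjusted p-value was under 0.05. The male intervals of Car3, Car8 and Car14 and the female intervals of Car8 and Car1 leave out 0.

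The difference of the KO effects between the sexes was tested for each gene. None of the 6 genes passed the adjusted p-value under 0.05 (0 of 6, against 0.00811% of all genes) or the unadjusted p-value under 0.01 (0 of 6, against 1.16%), and DESeq2 also called 0 of 6, against 0.0892% of all genes by that tool. At an unadjusted p-value under 0.05 the count was 1 of 6, against 5.96%. That gene was Car1, whose effect was lower in males by a log2 difference of -0.55 (SE 0.253, 95% interval -1.07 to -0.02, unadjusted p = 0.0407, adjusted p = 0.829). The estimates of the other 5 genes were positive, from 0.14 for Car8 to 0.43 for Car14.

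More of the genes were called between the sexes than between the genotypes. Of the 6 genes, 5 differed between mWT and fWT at an adjusted p-value under 0.05, against 17.3% of all genes tested. Between mKO and fKO 4 differed, against 14.4%. Because the 6 genes were chosen with earlier results of these data known, these counts are not evidence about the family. Of the 3 other family genes tested, 0 were called in either comparison. In WT mice, Car3, Car1 and Car14 were higher in males (3 of 6, against 8.51% of all genes) and Car2 and Car8 were lower (2 of 6, against 8.81%). In KO mice, Car3 and Car14 were higher in males (2 of 6, against 7.26%) and Car2 and Car8 lower (2 of 6, against 7.13%). These comparisons share no mice, but both come from a single fit with a shared estimate of the spread. They are therefore not fully independent of each other. Whether a gene's sex difference itself differed between the genotypes is the same test as the difference of the KO effects above, and no gene passed it.

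Car3 was 2.02-fold higher in mWT than in fWT (log2 fold change 1.02, SE 0.148, adjusted p = 1.66e-05) and 2.57-fold higher in mKO than in fKO (1.36, SE 0.149, adjusted p = 2.56e-07). In WT, 5 of 6 males lay above every female, the exception being the lowest mWT mouse at 2064 CPM beside the highest fWT mouse at 2076. In KO, the lowest male had 3254 CPM and the highest female 1764, so the groups did not overlap. Markers of fat and muscle, which are also rich in Car3, were measured in the same libraries. The adipocyte markers Adipoq, Plin1, Cfd, Retn and Lep summed to at most 0.530 CPM in any mouse, and the muscle markers Acta1, Myh4, Mylpf, Ckm and Tnnt3 to at most 1.38 CPM.

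Car14 was 1.38-fold higher in mWT than in fWT (log2 fold change 0.47, SE 0.156, adjusted p = 0.0410) and 1.87-fold higher in mKO than in fKO (0.90, SE 0.157, adjusted p = 0.000215). In WT, 4 of 6 males lay above all females, and in KO 5 of 6. The WT call was close to the threshold, and leaving out any of mWT mice 1, 2, 3 and 5 or fWT mice 1, 2, 3 and 6 moved its adjusted p-value to between 0.0516 and 0.112. Exons of Car14 overlap 445 bp of the gene Aph1a on the other strand. Aph1a, a subunit of gamma-secretase, differed by a log2 fold change of -0.07 between mWT and fWT (adjusted p = 0.562) and of -0.17 between mKO and fKO (adjusted p = 0.102).

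Car2 and Car8 went the other way. Car2 was 3.75, 4.61 and 5.65 CPM in mWT and 6.47, 7.59 and 9.48 CPM in fWT (lowest, median, highest), and 4.38, 5.07 and 5.44 CPM in mKO against 5.55, 6.76 and 7.61 CPM in fKO. No male overlapped with a female of the same genotype. The log2 fold change of males against females was -0.74 in WT (SE 0.116, adjusted p = 4.13e-05) and -0.42 in KO (SE 0.115, adjusted p = 0.0136). Across all genes, 7.7% did not overlap between mWT and fWT and 7.26% between mKO and fKO. Among the 6 carbonic anhydrases these were Car2 in WT, and Car2 and Car3 in KO. Between KO and WT no member was free of overlap in either sex, where 1.09% of all genes were in males and 0.349% in females.

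Car8 was lower in males than in females by a log2 fold change of -0.41 in WT (SE 0.0868, adjusted p = 0.00133) and of -0.28 in KO (SE 0.0865, adjusted p = 0.0290). All mWT mice except the highest, at 108 CPM, lay below the lowest fWT mouse at 107 CPM, and 4 of 6 mKO mice lay below all fKO mice. The KO call moved to an adjusted p-value between 0.0613 and 0.0728 when any of mKO mice 3, 4 and 6 or fKO mice 3 and 4 was left out. Male KO mice, at 113 ± 13.9 CPM, had a level between mWT (90.0 ± 10.4) and fWT (120 ± 10.03), as values set side by side.

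Car1 was 1.60-fold higher in mWT than in fWT (log2 fold change 0.68, SE 0.181, adjusted p = 0.00951), with 4 of 6 males above all females, and 0.85 on the log2 scale without fWT mouse 5 (adjusted p = 0.000997). Between mKO and fKO it differed by 0.14 (95% interval -0.23 to 0.50, adjusted p = 0.659). Car5a, the mitochondrial enzyme, had values of 41.5, 46.8 and 50.1 CPM in mWT, 38.0, 52.0 and 55.6 in mKO, 41.4, 48.9 and 62.7 in fWT, and 42.5, 44.4 and 50.6 in fKO. The ranges of all groups of Car5a overlapped, although 4 of 6 mKO mice lay above and the other 2 below every mWT mouse. Its sex difference was -0.15 in WT (-0.36 to 0.05, adjusted p = 0.323) and 0.09 in KO (-0.12 to 0.30, adjusted p = 0.587).

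**Figure D3:**
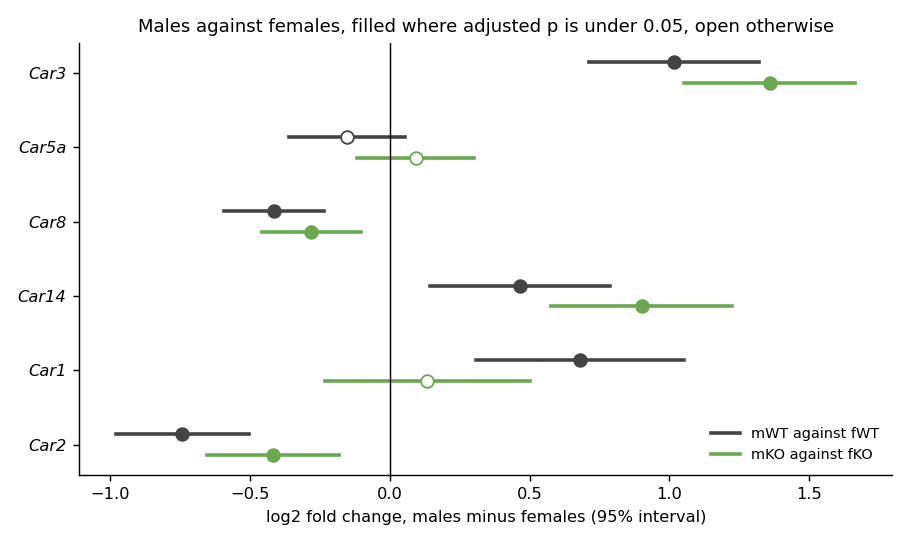
Log2 fold change of males against females in WT (grey) and KO mice (green), with lines for the 95% interval; filled points have an adjusted p-value under 0.05. Car3 and Car14 lie to the right of 0 and Car8 and Car2 to the left in both genotypes, Car1 is filled in WT only, and Car5a is open in both.

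**Figure D4:**
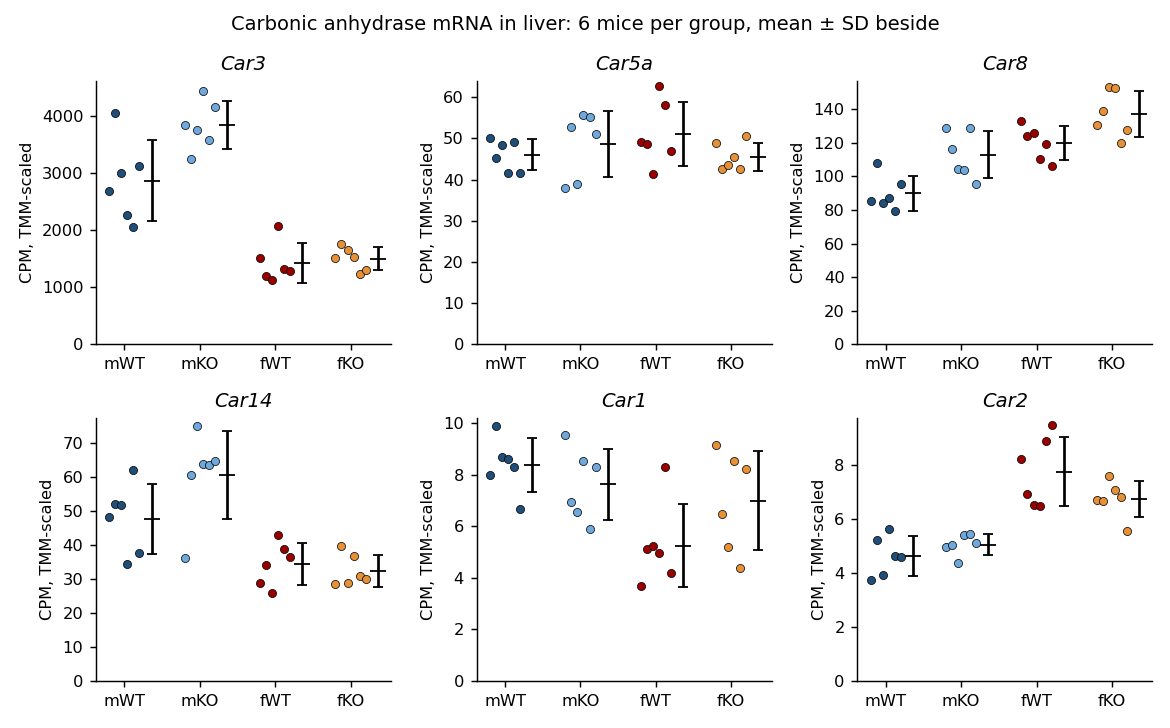
CPM of each gene in every mouse, on linear axes from 0, with the mean ± SD of 6 mice beside each group. Car3 runs from 1126 CPM in the lowest female to 4449 in the highest male, Car2 is lower in males of both genotypes, and Car5a stays between 38.0 and 62.7 CPM in all 24 mice.

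Because Car1 and Car2 are abundant in red blood cells, erythroid markers were set beside them. Of the 9 markers used, 8 had counts listed and 6 passed the filter. The markers Epb42 and Slc4a1 were at or near 0 in every mouse, with at most 0.366 CPM for Slc4a1. The globin genes and Alas2 were higher. The globin genes Hba-a1, Hba-a2, Hbb-bs and Hbb-bt summed to 35.1 to 82.2 CPM in mWT, 54.3 to 106 in mKO, 32.1 to 54.5 in fWT and 31.7 to 44.3 in fKO. The full list summed to 166 to 247 CPM in mWT, 194 to 277 in mKO, 65.5 to 98.4 in fWT and 73.1 to 92.3 in fKO, and most of the gap came from Alas2, an enzyme of heme synthesis, with 132 ± 17.3 CPM in mWT and 12.1 ± 2.91 in fWT. The markers other than the globin genes summed to 158.2 ± 21.15 CPM in mWT and 37.6 ± 7.19 in fWT (mean ± SD). Alas2 was thus most of that sum in mWT but the smaller part of it in fWT. How specific the rest is to red blood cells was not tested. Between mWT and fWT, 1 of the 6 tested markers was called higher in males, against 8.51% of all genes. Between mKO and fKO 5 of 6 were, against 7.26%. The part of red blood cells in the values of Car1 and Car2 was not tested.

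Within groups, the members differed in how they ran with the globin genes. The deviations of each mouse from its group mean, on the log2 scale, were correlated with those of the summed globin genes over 24 mice. The Pearson correlation was -0.06 for Car1, -0.15 for Car2, -0.10 for Car3, 0.66 for Car5a, -0.64 for Car8 and 0.33 for Car14. With the erythroid markers other than the globin genes, Car1 had a Pearson correlation of 0.29 and a Spearman correlation of 0.33. With the same markers the Pearson correlation of Car5a was 0.35 and that of Car8 -0.60. These are descriptions across mice that share a sequencing run and scaling. Car5a thus ran higher, and Car8 lower, in mice with more globin mRNA, and the part of red blood cells in either gene's values was not tested.

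**Figure D5:**
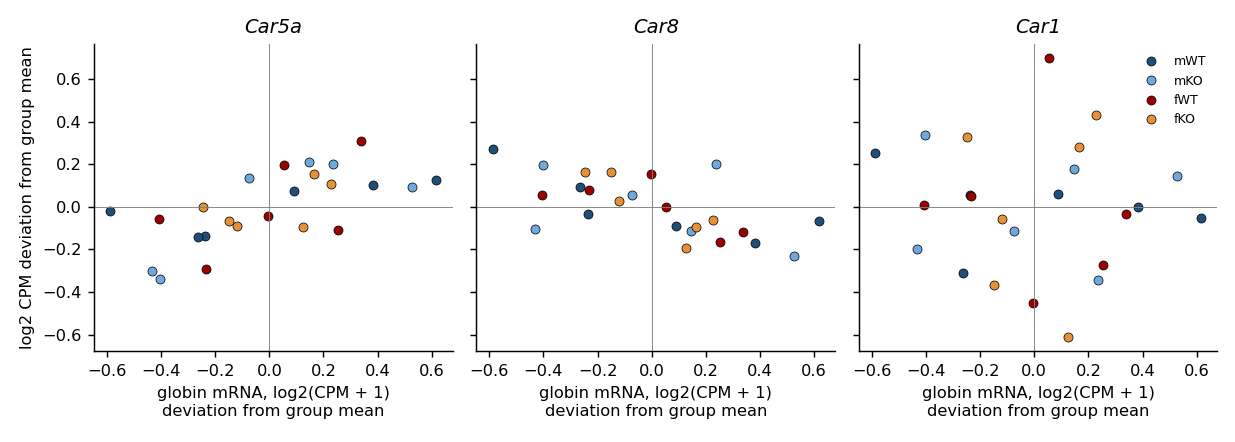
Deviation of Car5a, Car8 and Car1 from the group mean (log2 CPM) against that of the summed globin mRNA (log2 of CPM + 1), 1 point per mouse, coloured by group. The points rise for Car5a (Pearson r 0.66), fall for Car8 (-0.64) and show no slope for Car1 (-0.06).

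Markers of other liver cell types were partly lower in males. In mWT against fWT, 3 of 4 Kupffer cell markers, 1 of 4 endothelial markers and 1 of 3 cholangiocyte markers that passed the filter were called lower. In mKO against fKO 0, 1 and 0 were. Of all genes tested, 8.81% were called lower in mWT than in fWT and 7.13% in mKO than in fKO. The Kupffer cell markers Clec4f, Adgre1, Vsig4 and Cd5l summed to 63.0 to 128 CPM in mWT, 62.3 to 170 in mKO, 114 to 211 in fWT and 96.2 to 167 in fKO. The endothelial markers Stab2, Lyve1, Pecam1 and Kdr ranged over 78.9 to 105, 79.9 to 94.6, 91.8 to 120 and 84.6 to 128 CPM in the same order. The cholangiocyte markers Krt7, Krt19, Epcam, Sox9, Spp1 and Cftr ranged over 30.4 to 40.3, 30.9 to 47.3, 36.1 to 56.4 and 39.3 to 53.7 CPM. All 3 sums thus reached higher in fWT than in mWT, as did Car2 and Car8, and the part of these cells in the sex differences was not tested. Within groups, Car14 deviated against the Kupffer sum (Pearson r -0.60, Spearman rho -0.36, 24 mice). Without mKO mouse 1, which had the lowest Car14 value of its group, the Pearson r was -0.39 over 23 mice with the group means recomputed. Car5a also deviated against the Kupffer sum (Pearson r -0.45, Spearman rho -0.28). For the other members the Pearson r was -0.23 for Car3, -0.19 for Car1, -0.03 for Car2 and 0.19 for Car8.

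Hepatocyte zones were looked at in the same way. Pericentral markers (Glul, Cyp2e1, Cyp1a2, Oat, Slc1a2, Rhbg, Lgr5 and Axin2) summed to 8382 to 12411 CPM in mWT and 10452 to 14721 in fWT. In mWT 3 of 8 were called lower than in fWT, against 8.81% of all genes. In mKO against fKO 2 of 8 were, against 7.13%. Of the 6 periportal markers (Sds, Hal, Cyp2f2, Gls2, Pck1 and Ass1), 1 was called higher in males of either genotype, Cyp2f2. The share of all genes called higher in males was 8.51% in WT and 7.26% in KO. None of the markers of either zone was called between KO and WT mice in either sex. The part of zonation in the values of the carbonic anhydrases was not tested.

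The members varied largely independently of each other within groups. Over the 15 pairs, the highest correlation of deviations was 0.52, between Car5a and Car14, and the lowest -0.37, between Car8 and Car14. The neighbours Car1, Car2 and Car3 correlated at 0.09 (Car1 and Car3), 0.01 (Car2 and Car3) and -0.03 (Car1 and Car2). Among all genes tested, those whose deviations over the 24 mice were most like Car5a were Sardh (Pearson r 0.91), Aldh4a1 (0.89), Aldh1l1 (0.88), Prodh (0.87) and Gm21969 (0.87). Sardh, Aldh4a1, Aldh1l1 and Prodh encode enzymes of sarcosine, proline and folate metabolism, and none of them was called in any comparison. For Car3 the nearest genes were Sucnr1, Paox and Tfpi2 (0.84 each), Cyb5b (0.82) and Echdc1 (0.78), and for Car8 they were Nadk2 (0.86), Nectin3 and Nudt4 (0.84 each), Slco1b2 (0.83) and Vps4b (0.82). Car1 (Smim7, 0.81), Car14 (Cyp2b10, 0.75) and Car2 (Rpl13, 0.71) had less close neighbours. The genes named for each member were picked as those with the highest correlations among all genes tested. The level that such a maximum reaches by chance was not computed. Whether these correlations exceed it was therefore not tested. Unlike Car14, Cyp2b10 was called lower in males, by a log2 fold change of -3.73 in WT and of -3.04 in KO.

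Of the 10 other carbonic anhydrase genes, 3 passed the filter and none was called in any of the comparisons. Car5b, the other mitochondrial enzyme, was 3.22 ± 0.557 CPM in fWT and 4.32 ± 0.825 in fKO, a log2 fold change of 0.43 (SE 0.152, unadjusted p = 0.00876, adjusted p = 0.929), and 3.72 ± 0.814 CPM in mWT and 3.97 ± 0.546 in mKO. Car7 and Car15 stayed at or under 1.23 and 1.18 CPM in every mouse. Car9, Car11 and Car13 were below the filter at up to 0.319, 0.495 and 0.372 CPM, and Car6 and Car12 had at most 1 count in any library. Car4 was at 0 or 1 count except for 10 counts (0.455 CPM) in 1 fWT mouse. Car10 had 0 counts in all 24 libraries, and 3 counts, the smallest amount taken as detectable, corresponded to 0.114 to 0.195 CPM.

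Transporters and enzymes that use the same substrate were counted from lists. Of 18 genes for the transport of bicarbonate, protons, water and ammonia, 11 passed the filter and none was called between KO and WT mice in either sex. In WT, 2 of 11 were called lower in males, against 8.81% of all genes. Slc4a4, the sodium bicarbonate cotransporter, was 72.1 ± 14.3 CPM in mWT, 94.1 ± 8.73 in mKO, 111 ± 16.5 in fWT and 125 ± 17.4 in fKO. It was lower in males by a log2 fold change of -0.62 in WT (adjusted p = 0.000569) and of -0.41 in KO (adjusted p = 0.0193), and its KO estimate in males was 0.39 (unadjusted p = 0.00346, adjusted p = 0.201). These directions are those of Car8, given as a description. The water channel Aqp1 was lower in mWT than in fWT by -0.37 (adjusted p = 0.0370). Slc4a4 was the 1 gene of 11 called between mKO and fKO, against 14.4% of all genes.

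The bicarbonate-using enzymes Cps1, Pcx, Acaca, Acacb, Pcca, Pccb, Mccc1 and Mccc2 were all tested. None was called between KO and WT mice in either sex, and their log2 fold changes lay between -0.31 and 0.12 in males and between -0.15 and 0.06 in females. Pcca, a subunit of propionyl-CoA carboxylase, was higher in males by 0.29 in WT (adjusted p = 0.00748) and by 0.36 in KO (adjusted p = 0.00122), with no overlap in either genotype. The other 7, the urea cycle enzyme Cps1 that Car5a serves among them, were not called between the sexes. Of all genes tested, 17.3% were called between the sexes in WT and 14.4% in KO.

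Short stretches of some members also occur in other genes, with both strands counted. Of the stretches of 50 bases in the annotated transcripts, 24.4% of those of Car5a occurred in other genes. Most of them were in BC048644, which overlaps 314 bp of its exons on the other strand. For Car14, 15.7% occurred in Aph1a, which also overlaps it on the other strand. The reads of the study were longer than 50 bases, so these shares are not those of its reads. For Car1, 13.4% were shared with Gm5843, and for Car8, Car2 and Car3 the shares were 0.158%, 0% and 0%. The strand setting of the counting and the treatment of reads with several matches were not given in the sources used here, so values of Car5a, Car14 and Car1 carry this uncertainty.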

How the data were processed

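Libraries were made by the authors from stranded mRNA. After trimming (fastp 0.20) and alignment to GRCm38.p6 (STAR 2.7a), reads were assigned to genes with featureCounts, and the authors deposited the resulting raw counts, neither scaled nor filtered. Of the 25746 genes, 25712 were matched to GENCODE M21, which gave symbols, coordinates and exon lengths.

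Testing was done with edgeR 4.0.16 under R 4.3.3. A gene was kept if 6 or more of the 24 libraries reached 0.66 CPM. TMM scaling was followed by a single robust quasi-likelihood fit over all mice, with 4 group means. P-values were adjusted by Benjamini-Hochberg over all 12330 genes. Deviations for correlations were taken from log2 CPM with a prior count of 2. The procedure was tested on simulated counts, and figures were drawn with matplotlib. Each library is a mouse of its own. Total counts ran from 15361901 to 26261394, floors cover counting error only, and the most alike pair of a group (fKO mice 2 and 3) differed by a chi-square per gene of 8.09, so no library was counted as a repeat.

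The members, marker lists, transport and enzyme lists were chosen with earlier results of these data known. All 6 members were described in every group, called or not. For the lists, counts were given with values of called genes, and for each member the 5 genes with the highest correlation of deviations were looked up. The alternatives were DESeq2 1.42.0, its size factors within edgeR, no filter, edgeR's filterByExpr, non-robust dispersions, removal of the Mup genes, the mouse number as a block, each sex or genotype fitted on its own, and each mouse left out in turn. Protein sequences and methylation data were not used here. Of the marker genes planned, 1 is not reported here and was left out of its list.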

Additional observations from a re-analysis of the deposited data

Results flagged for a closer look

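In 2 of the 24 combinations of gene and group, 1 mouse stood apart from the other 5 by a gap past the 95% critical value of Dixon's test for groups of 6. Chance gives about 1 such value in 20 groups. Car1 in fWT mouse 5 was the highest of its group at 8.29 CPM (gap of 0.661 of the range), and Car14 in mKO mouse 1 was the lowest at 36.2 CPM (gap of 0.629). The cause was not tested.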

How the results depend on the processing

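The log2 fold changes of the 6 genes kept their direction in all 954 refits over 30 combinations of gene and comparison, and in 938 they kept their side of the adjusted p-value of 0.05. The others are Car8 between mKO and mWT (past the threshold in DESeq2 and without mWT mouse 2), Car14 between mWT and fWT (lost without any of 8 mice and with no filter, adjusted p = 0.0624) and Car8 between mKO and fKO (lost without any of 5 mice). The number of members called between mKO and mWT was 1 with DESeq2, and without a mouse it ran from 0 to 1. Leaving out a mouse gave 0 members between fKO and fWT and for the difference of the KO effects, 4 to 5 between mWT and fWT, and 3 to 4 between mKO and fKO.

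Over all genes, 26 were called between mKO and mWT, against 139 with DESeq2, 2 with the Mup genes removed, 49 with males fitted alone, and 19 to 59 without a mouse (59 without mWT mouse 1, 40 without mWT mouse 2). Between fKO and fWT 11 were called, against 18 with DESeq2, 0 with the Mup genes removed and 8 to 12 without a mouse. For the difference of the KO effects 1 was called, against 11 with DESeq2. Why the tools differ was not tested.

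Mouse numbers are shared by the groups but the mice are different animals. Over 36 same-numbered pairs, deviations correlated at a median of -0.00 (lowest -0.335, highest 0.253), with 10 over 0.1. Of the 36, 4 correlated best with their own number, among them mKO with fWT for numbers 1, 4 and 5. The numbers were therefore not used as pairs in the main fit. Whether some same-numbered mice shared a cage, litter or handling order was not tested. With the replicate block, 0, 0, 0, 5 and 4 members were called in the 5 comparisons, as without it, and 24 in place of 26 genes between mKO and mWT. Low counts limit Car1 and Car2, with 60 to 229 counts per library. Correlations with marker sums were also recomputed without each mouse, a choice made after seeing the data, and Pearson r ran from -0.74 to -0.39 for Car14 with the Kupffer sum, from 0.62 to 0.72 for Car5a and from -0.75 to -0.56 for Car8 with the globin sum, and from 0.17 to 0.43 for Car1 with the other erythroid markers.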
